A study of Homo sapiens with 6 samples.

Results

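The genes described here encode the pregnancy-associated plasma protein A protease (PAPPA), the stanniocalcins that inhibit it (STC1 and STC2), the growth factor IGF2 and the binding proteins IGFBP2 to IGFBP6. They are 9 of the 16578 genes named by the annotation of an Illumina bead array, and all probes annotated to any of them were taken. That rule found 9 of the 22184 probes, 1 for each gene, so each gene was read from a single probe. The set was chosen by the log2 change between vehicle and atrazine, in which the PAPPA probe was among the largest falls. The values of that contrast are therefore given for all 9 genes as a description, without a test.

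RNA came from the human neuroblastoma cell line SH-SY5Y, which is of sympathoadrenal type, grown with fetal bovine serum. A control group of 3 arrays held RNA of cultures that received only the solvent dimethyl sulfoxide (DMSO), and a group of 3 held RNA of cultures exposed to atrazine, a triazine herbicide. Neither dose nor length of exposure is given in the sources used here. The title of the study sets the comparison in the context of stress of the endoplasmic reticulum, mitochondrial damage and insulin signalling. The labels number the replicates and do not say that they were separate cultures, so errors and p-values cover only the variation among these 3 samples a group, possibly all of it technical.

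Insulin-like growth factors act mainly through the IGF1 receptor, and in serum and tissue most of them are held by binding proteins that keep them from it. PAPPA is a secreted metalloprotease that cuts IGFBP4, IGFBP5 and IGFBP2 and so sets bound growth factor free near the cell surface. IGFBP3 and IGFBP6 are not known as its main substrates. Stanniocalcin-1 and stanniocalcin-2, glycoproteins named for a fish hormone, bind PAPPA and block its activity. Neuroblastoma lines are known to respond to IGF2 and to secrete binding proteins.

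The stretch directly before the annotated start of transcription is shown for the 4 genes whose probes differed most between the groups, PAPPA and the binding proteins IGFBP4, IGFBP2 and IGFBP5. Each run holds 250 bases, 5′ to 3′ on the gene's strand, from the RefSeq annotation of GRCh38.p14. Capitals mark a TATA box (TATAAA) or a GC box (GGGCGG), searched on both strands.
PAPPA, chr9:116153541-116153790, plus strand: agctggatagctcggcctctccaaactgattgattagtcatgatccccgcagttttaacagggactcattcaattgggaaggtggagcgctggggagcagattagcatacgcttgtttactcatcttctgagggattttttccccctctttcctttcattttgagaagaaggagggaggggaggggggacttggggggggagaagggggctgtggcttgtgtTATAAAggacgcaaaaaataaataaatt
IGFBP4, chr17:40443200-40443449, plus strand: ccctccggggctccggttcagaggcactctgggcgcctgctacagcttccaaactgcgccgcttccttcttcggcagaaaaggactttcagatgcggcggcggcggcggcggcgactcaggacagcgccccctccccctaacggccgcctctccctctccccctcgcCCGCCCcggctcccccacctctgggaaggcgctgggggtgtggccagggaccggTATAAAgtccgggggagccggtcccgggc
IGFBP2, chr2:216632578-216632827, plus strand: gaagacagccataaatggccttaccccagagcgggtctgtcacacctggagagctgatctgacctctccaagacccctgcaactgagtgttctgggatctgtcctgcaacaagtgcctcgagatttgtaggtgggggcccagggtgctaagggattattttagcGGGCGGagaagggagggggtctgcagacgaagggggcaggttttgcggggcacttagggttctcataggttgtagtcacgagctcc
IGFBP5, chr2:216695550-216695799, minus strand: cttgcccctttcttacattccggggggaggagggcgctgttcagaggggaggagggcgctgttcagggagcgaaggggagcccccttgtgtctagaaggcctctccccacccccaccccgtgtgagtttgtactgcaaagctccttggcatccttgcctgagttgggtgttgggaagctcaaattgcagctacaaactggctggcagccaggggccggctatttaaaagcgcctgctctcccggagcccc

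RefSeq windows were used for 7 of the 9 genes. STC1 was left out before any matching, and no window was found for IGF2. PAPPA and IGFBP4, which lay on opposite sides in the comparison, each held a TATA box, beginning 28 and 29 bases before the start. TATA boxes were in 2 of the 7 windows and in 10.7% of 35116 windows of the same length. GC boxes were in 4 of the 7 (IGFBP2, IGFBP3, IGFBP4 and IGFBP6) against 42.6% of all windows, and CCAAT boxes (CCAAT) in 2 of the 7 (PAPPA and STC2) against 32.0%. A core bound by hypoxia-inducible factors (ACGTG) was in 0 of the 7 against 18.5%, and the composite core of ATF4 and C/EBP factors (TGATGNAA) in 0 against 3.1%. The core bound by the aryl hydrocarbon receptor (GCGTG), which hypoxia-inducible factors can also bind, was in 2, STC2 and IGFBP3, with 3 matches each, against 32.2% of all windows. The PAPPA window was the poorest in G and C, at 48.0%, against 56.8% to 76.0% in the other 6 and a median of 58.0% over all windows. IGFBP2 and IGFBP5 are neighbours on chromosome 2, while PAPPA lies on chromosome 9, IGFBP4 on 17, IGFBP3 on 7, IGFBP6 on 12 and STC2 on 5.

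The arrays of the groups differed in brightness, which touches every value below. The mean raw intensity was 532.2 to 939.1 on the DMSO arrays and 235.1 to 311.3 on the atrazine arrays, and 58.9% to 59.8% of probes were above background (detection p-value under 0.05) in DMSO against 43.6% to 52.0% in atrazine. Brightness and treatment cannot be told apart in this design. Atrazine replicate 2 stood apart, correlating with its replicates at 0.968 and 0.963 across probes, where the other atrazine pair gave 0.994 and the DMSO pairs 0.992 to 0.995. Of 13 sympathoadrenal marker genes on the array, 12 were above background on all 6 arrays, among them DBH, PHOX2A, CHGA and ISL1, while HAND2 was above background on 0. Of the 12 tested, 3 rose (INSM1 at 2.22, GAP43 at 1.13 and TH at 0.95) and 7 fell in limma's fit, among them DBH and CHGA, both at -1.63. Over all tested probes 27.7% were higher and 39.6% lower. The marker counts were 2 and 8 with median, 4 and 6 with housekeeping and 0 and 10 with no scaling. The summed normalized intensity of the 13 probes was 47900 to 53474 in DMSO and 33427 to 34767 in atrazine. This sum is weighted towards bright probes, among them STMN2, with a mean of 14.41 in DMSO and 14.05 in atrazine. The part of this shift in the results was not tested. With RNA from whole cultures, fewer cells of a type and less RNA per cell cannot be told apart. Values are log2 intensities after background correction and quantile normalization unless raw intensity is named, and no probe's level is set against another's.

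PAPPA was bright in vehicle-treated cells and close to background in atrazine-treated cells. Its raw intensity was 585, 1492 and 616 on DMSO arrays 1, 2 and 3 and 77.0, 78.8 and 108 on atrazine arrays 1, 2 and 3. After normalization these became 8.34, 8.92 and 8.61 in DMSO and 5.62, 5.43 and 6.06 in atrazine. The groups did not overlap, and 3 of 3 DMSO arrays but only atrazine replicate 3 were above background. The means were 8.62 ± 0.29 and 5.70 ± 0.33 (SD, n = 3), a log2 difference of -2.92 (SE 0.20), or 7.57-fold lower in atrazine. The size is uncertain because 2 of the 3 atrazine values lay at background.

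This made PAPPA the probe with rank 4 among falls over the 12969 probes tested. The named gene just above it in that order was the zinc finger gene ZNF789, at -3.03 (SE 0.21), and the one just below was TM4SF4, a tetraspanin-like membrane protein gene, which was above background on 0 atrazine arrays and at least 4.37-fold lower. Under the alternatives that kept the probe, its rank ranged from 3 to 6. Within its own array, PAPPA stood at percentiles 79.4, 84.8 and 82.0 of all raw intensities in DMSO and at 47.0, 42.9 and 53.9 in atrazine. These percentiles do not depend on how arrays are scaled to each other. Quantile normalization rests on the same order within each array, so they are no separate check of the normalized values.

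**Figure D1:**
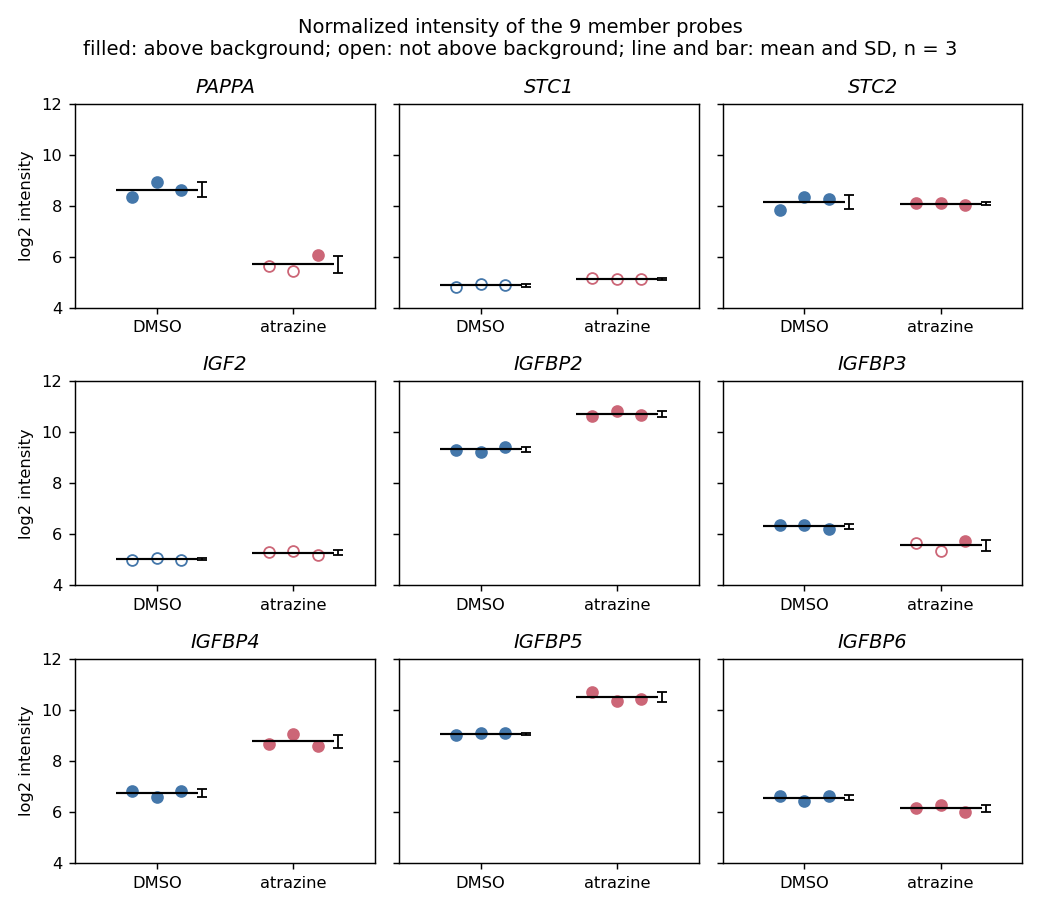
Normalized log2 intensity (vertical axis) of the 9 genes on each array, by group, with the mean and SD of 3 arrays. Filled points were above background and open points were not; PAPPA went from 8.62 to 5.70, IGFBP4 from 6.74 to 8.76, and STC1 and IGF2 were open on all 6 arrays.

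On the normalized scale, IGFBP4, IGFBP2 and IGFBP5 were higher in atrazine and IGFBP3 and IGFBP6 were lower. This split depended on the scaling between arrays. With housekeeping scaling IGFBP3 (0.13) and IGFBP6 (0.11) also lay above 0. With no scaling IGFBP4 alone did (0.42, SE 0.36). Any link to cutting by PAPPA was not tested. IGFBP4, which holds growth factor until PAPPA cuts it, gave 6.80, 6.57 and 6.84 in DMSO and 8.65, 9.04 and 8.59 in atrazine. All 3 atrazine values lay above all 3 DMSO values, with means of 6.74 ± 0.15 and 8.76 ± 0.25 and a log2 difference of 2.03 (SE 0.15), or 4.07-fold. Its probe lay above 97.2% of all tested probes in the order of changes, at rank 361 among rises. It was above background on all 6 arrays. On the raw scale IGFBP4 gave 208, 295 and 196 in DMSO and 226, 308 and 306 in atrazine, values that overlap between the groups. Its percentile in its own array went from 60.1 to 63.2 in DMSO to 81.7 to 85.9 in atrazine.

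IGFBP2, a binding protein abundant in fetal and neural tissue, gave 9.32, 9.25 and 9.43 in DMSO and 10.65, 10.85 and 10.68 in atrazine. The groups did not overlap, and the log2 difference was 1.39 (SE 0.11), or 2.62-fold. Its raw intensity was 1139, 1895 and 1092 in DMSO and 767, 980 and 1117 in atrazine, so on that scale atrazine replicate 3 was within the DMSO range and the other 2 were below it.

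IGFBP5, a binding protein that attaches to extracellular matrix and is also cut by PAPPA, gave 9.03, 9.10 and 9.09 in DMSO and 10.72, 10.34 and 10.44 in atrazine. The log2 difference was 1.43 (SE 0.12), or 2.69-fold, again without overlap. Its raw intensity was 933, 1704 and 855 in DMSO and 802, 678 and 951 in atrazine. On that scale atrazine replicate 3 was within the DMSO range, and replicates 1 and 2 were below it. IGFBP2 and IGFBP5 lay above 92.6% and 92.9% of tested probes. Both were above background on all 6 arrays, at percentiles 87.6 to 89.0 and 85.7 to 86.4 of their arrays in DMSO and 95.8 to 96.5 and 94.4 to 96.1 in atrazine.

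IGFBP3, the main carrier of growth factor in serum, gave 6.36, 6.37 and 6.19 in DMSO and 5.66, 5.33 and 5.74 in atrazine. Every atrazine value lay below every DMSO value, but only atrazine replicate 3 was above background. The log2 difference was -0.73 (SE 0.13), or 1.66-fold lower, and 22.3% of tested probes lay lower in the order of changes. As for PAPPA, the size is uncertain because 2 of the 3 atrazine values lay at background.

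IGFBP6, which binds IGF2 in preference to IGF1, gave 6.61, 6.44 and 6.62 in DMSO and 6.15, 6.28 and 6.01 in atrazine. The log2 difference was -0.41 (SE 0.11), or 1.33-fold lower. The groups did not overlap and the probe was above background on all 6 arrays, with detection p-values of 0.027, 0.045 and 0.031 in atrazine, close to the limit. Its change was near the middle of all probes, of which 37.3% lay lower.

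Of the inhibitors of PAPPA, only STC2 was measurable. STC2 gave 7.84, 8.33 and 8.26 in DMSO and 8.09, 8.12 and 8.04 in atrazine, so the atrazine values lay within the DMSO range. The log2 difference was -0.06 (SE 0.14), smaller than the SD of 0.27 between DMSO arrays. The STC1 probe was above background on 0 of 6 arrays, with raw intensities of 62.4 to 97.4 in DMSO and 67.3 to 78.5 in atrazine, so no fold is given.

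The IGF2 probe was likewise above background on 0 of 6 arrays, with raw intensities of 71.8 to 110 in DMSO and 70.9 to 80.9 in atrazine. A level below the reach of this probe was not detectable here. The annotation of GRCh38.p14 also holds a read-through gene, INS-IGF2, which overlaps IGF2. Whether the probe also matches that gene was not analysed here.

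**Figure D2:**
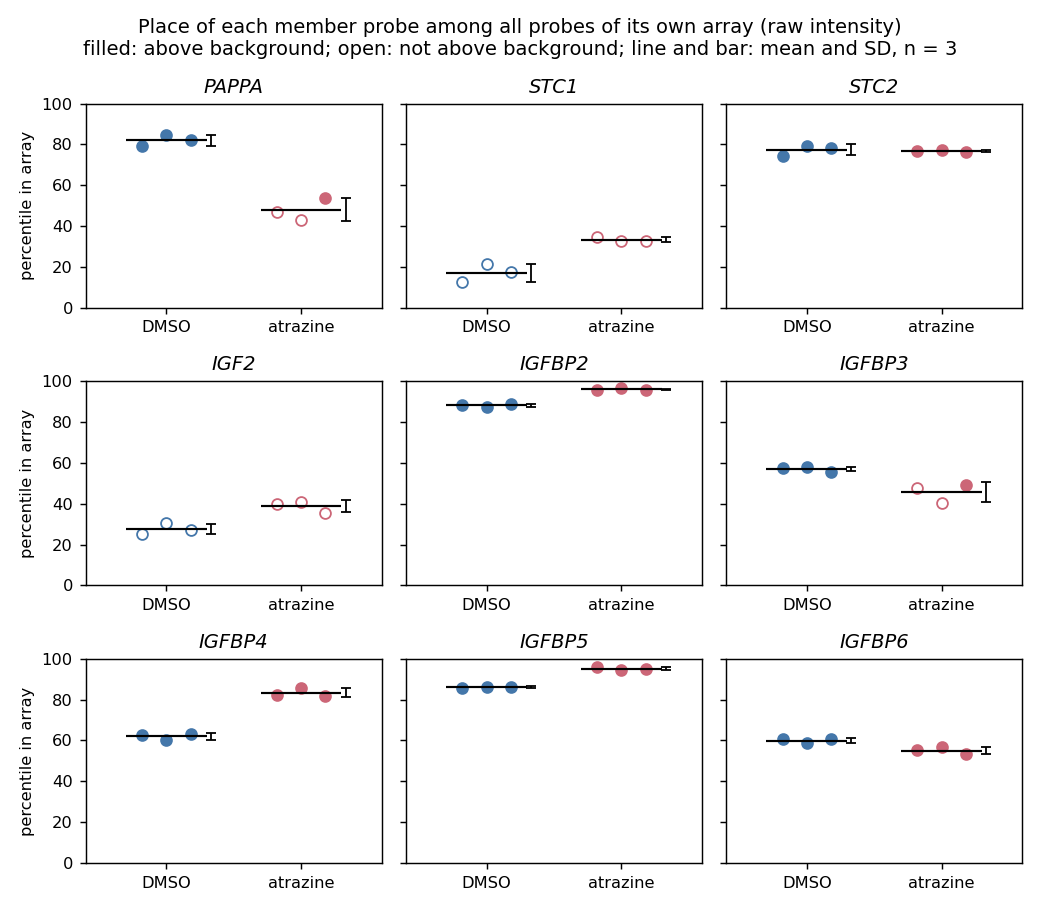
Percentile of each gene's raw intensity among all probes of the same array (vertical axis, 0 to 100), by group, with the mean and SD of 3 arrays. PAPPA moved from a mean of 82.0 to 48.0, IGFBP4 from 62.0 to 83.3, and STC2 stayed at 77.3 and 76.8.

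In all, 7 of the 9 genes passed the filter on dim probes. Of these, 6 were past the threshold of the fit across the array (limma, adjusted p under 0.05), 3 higher (IGFBP2, IGFBP4 and IGFBP5) and 3 lower (PAPPA, IGFBP3 and IGFBP6) in atrazine. Over all tested probes 67.3% were past it, 27.7% higher and 39.6% lower. The values of the groups did not overlap in 6 of the 7, and in 75% of all tested probes. Since the genes were chosen with this contrast known, these counts are no test of the genes and nothing is read from them. The median log2 change was -0.06 over the 7 genes and -0.18 over all tested probes. More probes were above background in DMSO, so more could pass the filter through DMSO alone, as PAPPA and IGFBP3 did. The shares and the median over all probes thus depend on the filter. With no filter that median was -0.006. With detection p under 0.01 on all 6 arrays it was 0.003, with 2103 probes higher and 1882 lower.

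**Figure D3:**
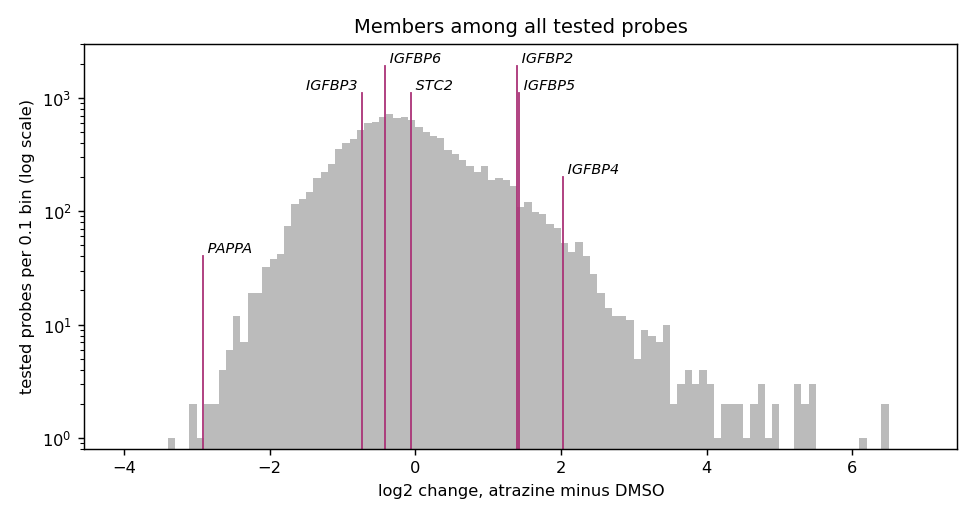
Number of tested probes (vertical axis, log scale) by log2 change, atrazine minus DMSO, in bins of 0.1, with a line for each of the 7 tested genes. PAPPA stands in the left tail at -2.92, IGFBP4 in the right flank at 2.03, and IGFBP6 and STC2 near the centre at -0.41 and -0.06.

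The scaling between arrays set the direction of several of these differences. PAPPA stayed lower under each scaling tried, at -3.42 with median scaling, -2.48 with housekeeping scaling and -4.13 with none. IGFBP4 stayed above 0 under each, at 1.13, 2.07 and 0.42, the last with an SE of 0.36 and raw values that overlap. IGFBP2 gave 0.20 with median scaling, 1.14 with housekeeping scaling and -0.51 with no scaling. IGFBP5 gave 0.23, 1.17 and -0.48. STC2, near 0 in the main setting, gave -1.15 with median scaling, -0.21 with housekeeping scaling and -1.86 with none. IGFBP3 and IGFBP6 turned to 0.13 and 0.11 with housekeeping scaling. The median of all tested probes was itself -0.90 with median scaling, 0.04 with housekeeping scaling and -1.61 with none. Among all calls, the share higher in atrazine was 41.2% in the main setting, 18.2% with median scaling, 54.1% with housekeeping scaling and 3.27% with none.

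**Figure D4:**
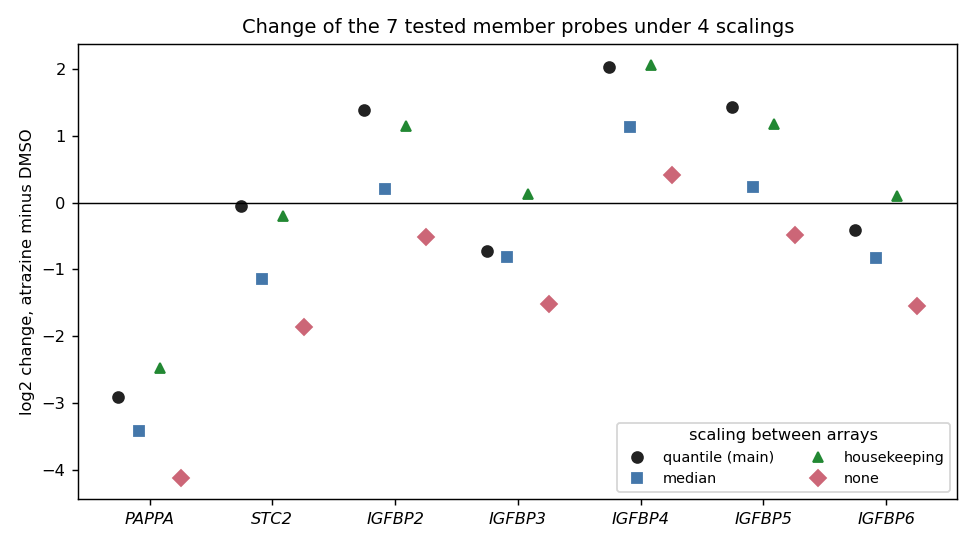
Log2 change, atrazine minus DMSO (vertical axis), of the 7 tested genes under quantile normalization and 3 other scalings between arrays. The points of PAPPA lie between -4.13 and -2.48 and those of IGFBP4 between 0.42 and 2.07; the points of IGFBP2, IGFBP3, IGFBP5 and IGFBP6 lie on both sides of 0.

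The difference between the changes of any pair of genes does not depend on a scaling that shifts a whole array. On background-corrected values with no scaling between arrays, the change of IGFBP4 exceeded that of PAPPA by 4.55 log2 units (SE 0.31). IGFBP5 exceeded PAPPA by 3.65 (SE 0.22) and IGFBP2 by 3.62 (SE 0.21). IGFBP6 and STC2 exceeded it by 2.59 (SE 0.29) and 2.27 (SE 0.09). With no scaling, PAPPA was at -2.52 relative to the median of all tested probes, IGFBP6 at 0.06 and STC2 at -0.25. The gaps of IGFBP6 and STC2 were thus close to that of a probe at the median. No value is given for IGFBP3, since it and PAPPA were both at background on atrazine replicates 1 and 2. PAPPA was chosen for its fall and lay at background on those arrays, so these differences are descriptions of uncertain size.

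Without atrazine replicate 2, PAPPA was at -2.92, IGFBP4 at 1.95, IGFBP2 at 1.32, IGFBP5 at 1.503, IGFBP3 at -0.67, IGFBP6 at -0.52 and STC2 at -0.08. Each of these kept the direction it had with all 6 arrays. For STC2 the direction turned, to 0.036, without DMSO replicate 2.

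Across the 6 arrays, the probes most like PAPPA by Pearson correlation of normalized values were those of POLR3C, a subunit gene of RNA polymerase III (r = 0.9996), the tyrosine phosphatase gene PTPN21 (r = 0.9995) and the zinc finger gene ZNF132 (r = 0.9993). POLR3C changed by -1.26. PTPN21 and ZNF132 were above background on 0 atrazine arrays and were at least 1.33-fold and 1.06-fold lower. Among the binding proteins the correlation with PAPPA was -0.99 for IGFBP2 and IGFBP4, -0.97 for IGFBP5, 0.96 for IGFBP3 and 0.82 for IGFBP6. These values describe 6 arrays in 2 groups and mostly follow the difference between the groups.

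The other genes of the IGF system were read from lists of growth factors, receptors, adaptors and further binding proteins. Of 18 such genes, 17 were on the array with 19 probes, and 10 probes of 10 genes were tested. In limma's fit, 3 rose and 5 fell, while 2, the regulator PLAGL1 (0.12) and IGF2BP2, which binds IGF2 mRNA (-0.01), did not pass. The share past the threshold was 67.3% over all probes. The list's median log2 change was -0.22, against -0.18 over all tested probes. With housekeeping scaling 6 rose and 3 fell, and with no scaling 0 rose and 6 fell.

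Among receptors, IGF2R, which takes up IGF2 for breakdown in lysosomes, fell from 9.78, 9.89 and 9.87 to 8.77, 8.94 and 8.67. The log2 change was -1.05 (SE 0.11, limma adjusted p = 1.46e-04), with no overlap, and IGF2R was also lower with median (-2.23), housekeeping (-1.30) and no scaling (-2.95). INSR, the insulin receptor gene, rose from 5.56, 5.50 and 5.64 to 6.50, 6.47 and 6.51, a change of 0.93 (SE 0.09, limma adjusted p = 1.32e-04). Its change was 0.79 with median, 1.73 with housekeeping and 0.08, not past, with no scaling. INSR lay close to the detection limit, with detection p-values of 0.025 on each DMSO array and 0.020, 0.034 and 0.017 in atrazine. Its raw intensities overlapped between the groups, at 101, 146 and 104 in DMSO and 96.7, 106 and 124 in atrazine. GRB10, an adaptor that dampens both receptors, rose by 1.00 (SE 0.15, limma adjusted p = 8.00e-04) on 1 of its 3 probes, and 0.07, not past, with no scaling. That probe was also close to the limit, with detection p-values of 0.017 to 0.025, and its raw intensities overlapped between the groups. The other 2 GRB10 probes were above background on 0 of 6 arrays.

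The IGF1R probe, of the receptor that mediates most IGF signalling, was above background on 2 DMSO arrays and 0 atrazine arrays and was not tested. Probes of IGF1, IGFALS, IGFBP1, IGFBP7, IGF2BP1 and IRS4 were above background on 0 of 6 arrays. IRS1, an adaptor of both receptors, passed the test as a fall, but it was above background on 0 atrazine arrays and no fold is given. With housekeeping scaling its call turned, to 0.61 (limma adjusted p = 0.0035). IGFBP1 is the neighbour of IGFBP3 on chromosome 7.

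Proteases that can cut binding proteins, with the known partners of PAPPA, went both ways. Of 24 listed genes, 23 were on the array with 29 probes, and 10 probes of 9 genes were tested. In limma's fit 4 rose, 2 fell and 4 did not pass, where 67.3% of all probes were past the threshold, and the median was 0.11. With median scaling 1 rose and 4 fell, with housekeeping scaling 6 rose and 2 fell, and with no scaling 0 rose and 7 fell.

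ADAMTS1, a secreted metalloprotease of the extracellular matrix, fell from 9.62, 10.07 and 9.89 to 8.41, 7.92 and 7.98, without overlap. The log2 change was -1.76 (SE 0.17, limma adjusted p = 1.22e-04), and it was -2.90, -1.96 and -3.61 with median, housekeeping and no scaling. ADAM17, a sheddase of membrane proteins, rose by 1.27 (SE 0.11, limma adjusted p = 8.43e-05) and ADAM9, which can cut IGFBP5, by 1.30 (SE 0.14, limma adjusted p = 2.10e-04). With no scaling both lay below 0, at -0.39 and -0.12, not past, and with median scaling ADAM17 was at 0.32, not past. HTRA1, a secreted serine protease, rose by 0.59, but was at 0.08 with median scaling and -0.63 with no scaling, neither past the threshold. The lysosomal cathepsin gene CTSD fell, with a change of -0.57, and was also lower with median (-1.74), housekeeping (-0.80) and no scaling (-2.45). Another cathepsin gene, CTSB, rose by 0.87, but was at -0.32, not past, with median scaling and at -1.04 with no scaling. The CTSL probes, at 0.09 and 0.13, did not pass. PRG2, whose product is a known inhibitor of PAPPA, was above background on 0 of 6 arrays. PAPPA2, the closest relative of PAPPA, had 2 probes, of which 1 was above background on 0 arrays and the other on 1 atrazine array.

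**Figure D5:**
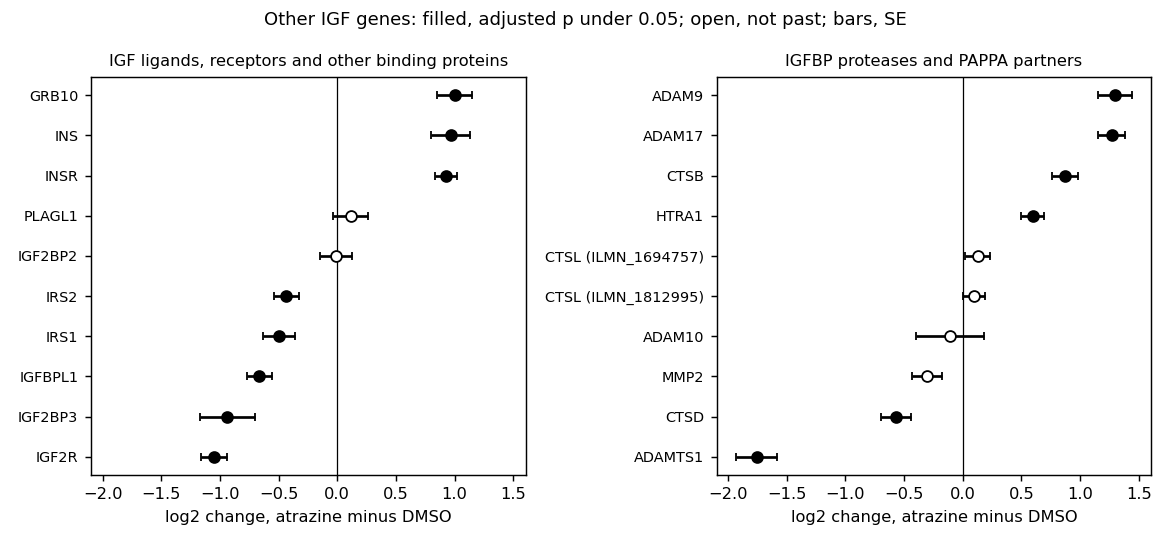
Log2 change, atrazine minus DMSO, with SE (horizontal axis) for each tested probe of the other IGF genes (left) and of proteases and PAPPA partners (right). Filled points passed the threshold in limma's fit, IRS1 and MMP2 were above background on 0 atrazine arrays, and the panels run from IGF2R at -1.05 to GRB10 at 1.00 and from ADAMTS1 at -1.76 to ADAM9 at 1.30.

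PAPPA and several binding proteins are also made by mesenchymal-type cells, which neuroblastoma lines can hold. Of 23 probes for 18 marker genes of such cells, 13 were tested, of which 7 rose and 3 fell, where 27.7% of all tested probes were higher and 39.6% lower. The counts were 3 and 4 with median scaling, 9 and 0 with housekeeping scaling and 1 and 6 with no scaling. The collagen gene COL1A1 rose by 2.43 and the proteoglycan gene LUM by 1.16 on the log2 scale. SNAI2 had 0 atrazine arrays above background, which puts its fall at 1.32-fold or more. COL1A2 and 1 of 3 DCN probes also fell, with 0 atrazine arrays above background, so no fold is given, while the other DCN probes rose by 1.27 and 0.46. A CD44 probe at -0.57 did not pass. The summed normalized intensity of the 23 probes was 3588 to 4077 in DMSO and 6813 to 7340 in atrazine. It was 3442 to 3972 and 7104 to 7699 with housekeeping scaling, but 4726 to 5524 and 4527 to 6049 with median scaling. Such sums are weighted towards bright probes, among them VIM, with a mean of 9.99 in DMSO and 11.59 in atrazine. FN1, COL3A1, COL6A3, POSTN, TGFBI, YAP1 and WWTR1 were above background on 0 of 6 arrays. The part of such cells in the values of PAPPA and the binding proteins was not tested.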

How the data were processed

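The authors deposited raw signal intensity for 22184 probes on 6 arrays, and per the file headers each intensity has a detection p-value. A second table the authors deposited holds processed intensity values, which had the rank order of the raw ones on every array (Spearman rho of 1) and the same sorted values on each, and these served as an alternative. The scanner software and the chip of each array are not given in the sources used here. Per the labels' protocols, RNA was isolated with TRIzol and labelled as biotinylated cRNA.

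The limma package (3.58.1, R 4.3.3) was used throughout. Normexp removed background, estimated from the detection p-values (offset 16), and quantile normalization on the log2 scale followed. Symbols came from the platform annotation, which named 1 symbol for 19715 probes, several for 0 and none for 2469. Each probe was its own feature and was tested if either group had all 3 arrays at a detection p under 0.05, which left 12969. Groups were compared with lmFit and eBayes, two-sided, adjusted by Benjamini-Hochberg over all tested probes. For a group with 0 arrays above background, a fold is given as at least the brighter mean against, per array, the higher of the lowest detected signal and the probe's own. The procedure was tested on simulated data in which few probes changed, with equal odds of a rise or a fall. That setting differs from these arrays, where 67.3% of tested probes were past the threshold. The simulation therefore cannot decide between the scalings. The number of arrays limits the precision, and with 3 against 3 an exact test of 1 gene cannot go below p = 0.1.

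The 9 genes, the other lists and the rule for named genes were chosen with earlier results of these data known. Named were every probe of the 9 genes, up to 3 probes of smallest p in each pathway list, the neighbours of PAPPA in the order of falls and the 3 named genes most like it. Further genes of the lists (IRS1, HTRA1, CTSD, CTSB, those not tested or not past, and markers) were named after their values were seen. Other genes of the lists past the threshold were not named. The pairs of genes whose changes were compared were also chosen then. Alternatives covered background, scaling, the dim-probe filter, 1 probe a gene, the variance model, the replicate number as a block, each array left out and other thresholds.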

Additional observations from a re-analysis of the deposited data

How the results depend on the processing

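Requiring a detection p under 0.01 on all 6 arrays gave 3985 calls among 6178 tested probes, against 8734 among 12969. Of the 9 genes, 3 of the 4 tested were called (IGFBP2, IGFBP4 and IGFBP5), against 6 of 7. PAPPA, IGFBP3 and IGFBP6 were no longer tested. Of the other IGF probes, 3 of 3 tested were called, against 8 of 10. The lower counts thus go with fewer probes tested. Leaving out each array in turn gave from 7507 calls among 13070 tested probes to 9484 among 13174. It gave 5 to 6 calls over the 7 tested genes, 7 to 8 over the other IGF genes and 6 to 7 over the proteases. Several alternatives leave each log2 change as it was, so no direction could turn under them. These were the detection filters, 1 probe a gene, an intensity trend with robust estimation and the replicate block. The background alternatives and the processed values kept the rank order within each array. As a description and not a test, 111 of 123 values of the 7 tested genes kept direction and side of the threshold. Of the rest, 5 turned: IGFBP2 (-0.51) and IGFBP5 (-0.48) with no scaling, IGFBP3 (0.13) and IGFBP6 (0.11) with housekeeping scaling, and STC2 (0.036) without DMSO replicate 2, whose values with an array left out ran from -0.21 to 0.036. The cause was not tested. STC2 came to lie past the threshold with median (-1.15) and no scaling (-1.86). IGFBP2 (0.20) and IGFBP5 (0.23) with median scaling, IGFBP4 (0.42) with no scaling, and IGFBP6 without DMSO replicate 3 (-0.36) and with the replicate block (-0.41) no longer did. PAPPA ranged from -4.13 to -2.14, the smallest size being without background correction, and from -3.20 to -2.62 with an array left out. Same-numbered arrays of the groups did not deviate together (r = -0.17, -0.44 and -0.29 across probes), so the numbers were not taken as pairs. With the replicate block 7598 of 12969 tested probes were called, and 5 of the 7 tested genes (all of the 6 but IGFBP6). So were 8 of 10 tested probes of the other IGF genes and 6 of 10 of the proteases.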
